A study of Mus musculus with 9 samples.

Results

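The S100 calcium-binding proteins, the galectins, the annexins and vimentin were followed in regulatory T cells (Tregs) of injured and uninjured mice. The 10 genes were fixed by name: S100a4, S100a6, S100a10, S100a11, Lgals1, Lgals3, Anxa1, Anxa2, Anxa5 and Vim. Each was taken from the row whose transcript accession carries its symbol. A row was matched for 9 of the 10, out of 21023 named genes, each from a single row, and Lgals3 was not analysed here. Tregs are CD4 T cells that depend on the transcription factor Foxp3 and dampen immunity. They were sorted as CD4+ GFP+ cells from Foxp3EGFP reporter mice on the C57BL/6 background, aged 8 to 12 weeks, and profiled on Affymetrix Mouse Gene 2.1 ST arrays. Control lung cells came from uninjured mice, and resolving lung and resolving spleen cells from mice given Escherichia coli lipopolysaccharide at 3 mg/kg into the trachea, with 3 arrays per group. All groups carried the reporter allele. A spleen of uninjured mice was not among the groups, so the organ could be compared without a difference in injury only between resolving lung and resolving spleen.

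S100 proteins are small EF-hand proteins that bind calcium and then dock onto target proteins, many of them annexins or parts of the cytoskeleton. Annexins bind acidic phospholipids in the presence of calcium and act in membrane repair, vesicle traffic and the resolution of inflammation. Galectins bind galactosides on glycoproteins of the cell surface. In T cells, several genes of these families are commonly seen at higher levels in activated, effector and memory cells than in naive cells. Galectin-1, the product of Lgals1, is known to contribute to suppression by Tregs.

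Among the 9 genes, calls were found only in the comparisons with spleen, and none between the lung groups. S100a10 and Anxa5 had no call in any comparison. Of the 9, 6 were higher in resolving lung than in resolving spleen (S100a4, S100a6, Lgals1, Anxa1, Anxa2 and Vim) by 1.54-fold to 3.33-fold, at a limma adjusted p under 0.05, and 0 were lower. Of all genes 2.64% were called higher and 2.82% lower. With the replicate number as a block on the 6 arrays of these groups alone, S100a4, Lgals1 and Vim did not pass (limma adjusted p = 0.0796, 0.0792 and 0.0974). Between control lung and resolving spleen 4 of the 9 were higher (S100a11, Lgals1, Anxa1 and Anxa2), by 1.40-fold to 2.86-fold, and 0 were lower, against 2.67% of all genes higher and 3.49% lower. Between resolving lung and control lung 0 of the 9 passed the threshold with limma, where 0.457% of all genes did. At an unadjusted p under 0.05 the count was 3 of the 9 (S100a4, S100a6 and Anxa5), against 14% of all genes.

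**Figure D1:**
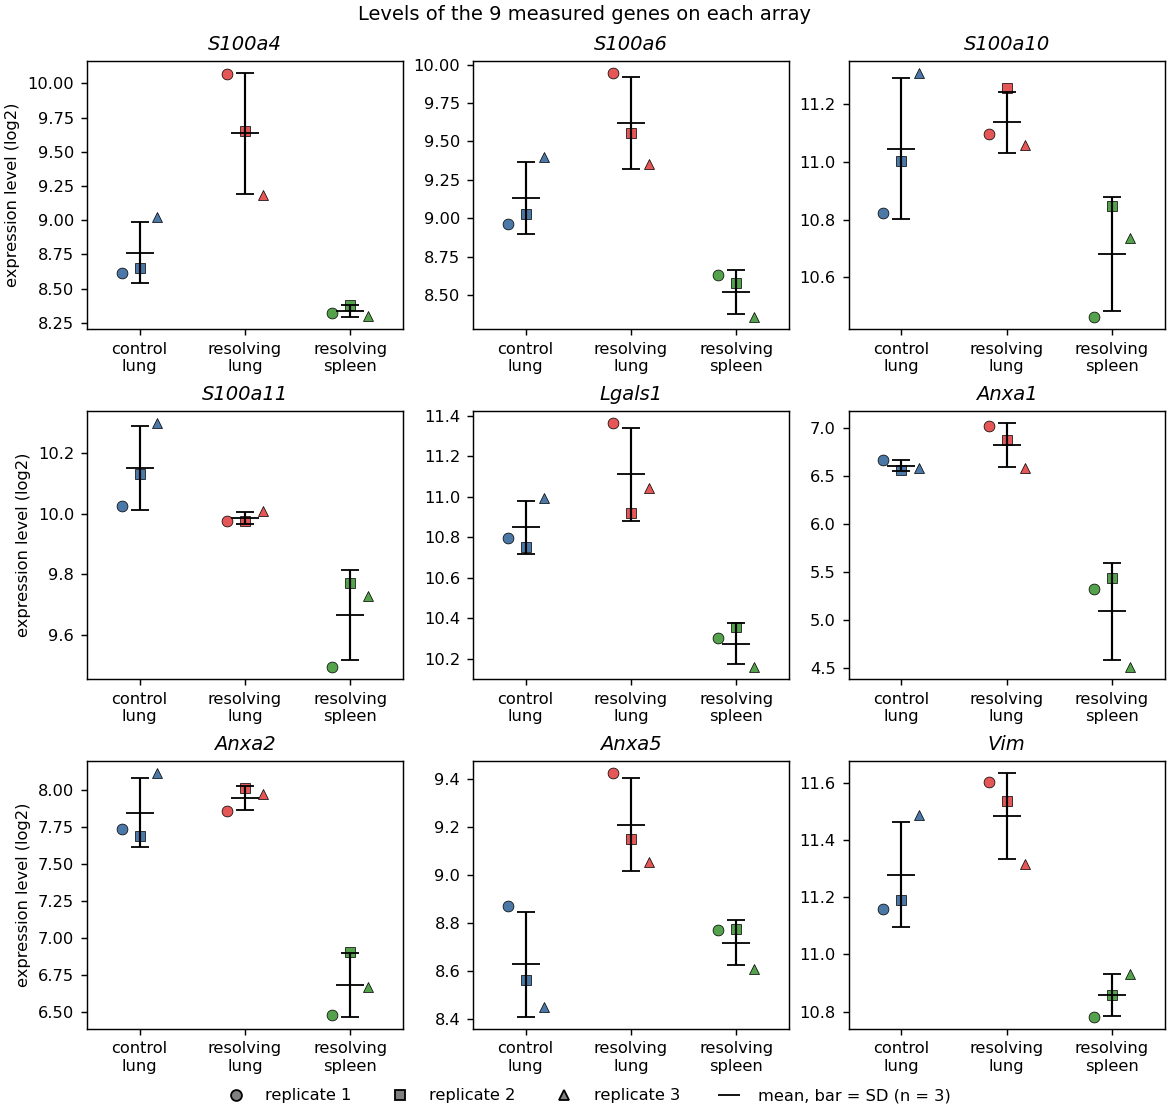
Expression level (log2, vertical axis of each panel) of the 9 measured genes on each of the 9 arrays, by group; points are arrays, marker shapes are replicate numbers, and horizontal lines with bars are the mean and SD of 3 arrays. In every panel the 3 resolving lung arrays lie above the 3 resolving spleen arrays, and for Anxa1 the lung arrays lie between 6.57 and 7.03 against 4.51 to 5.44 in spleen.

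**Figure D2:**
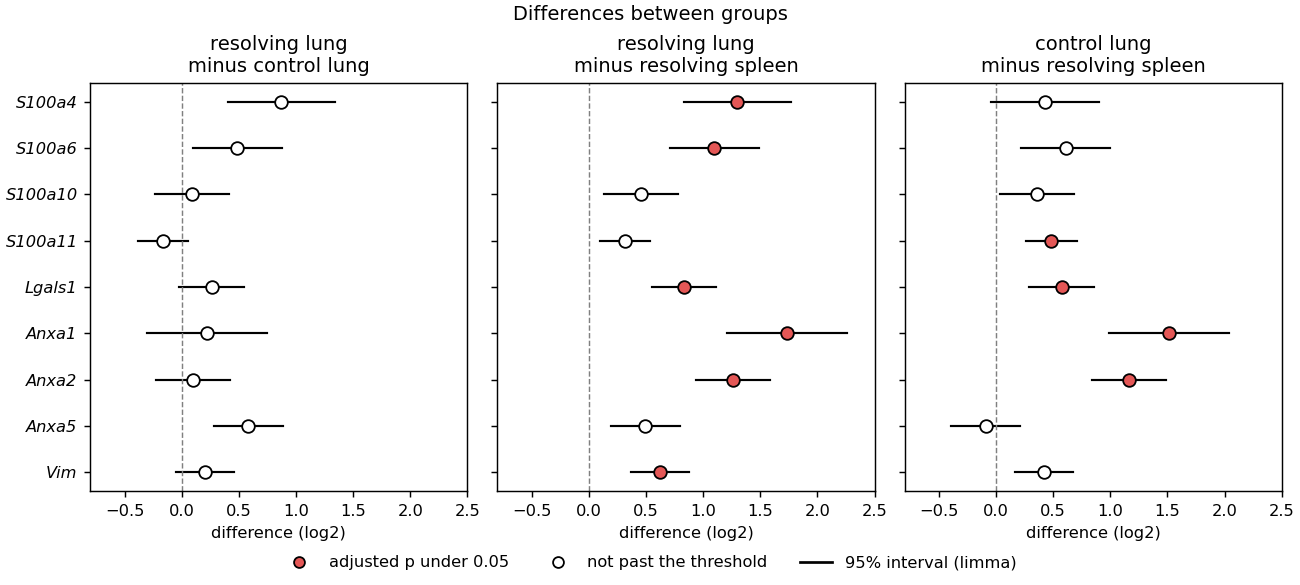
Difference between 2 group means (log2, horizontal axis) for each of the 9 genes in the 3 comparisons; lines are 95% intervals of the limma fit, not adjusted for the number of genes, and filled points have an adjusted p under 0.05. Filled points number 0, 6 and 4 from left to right, and the resolving lung against control lung differences lie between -0.17 and 0.87.

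Arrays were checked before the genes were compared. Foxp3 lay between 10.43 and 10.75 and Cd4 between 10.82 and 11.06 on all 9 arrays, and all 9 measured genes of the T cell and Treg marker list lay above the dim level on every array. The dim level was the 95th percentile of 915 olfactory receptor genes, between 3.32 and 3.52 per array, and the 9 genes lay above it on every array. The shares of all genes given here include genes below it. In an alternative fit of the 9879 genes above it in at least 3 arrays, 2310 had an unadjusted limma p under 0.05 between the lung groups. In that fit 718 genes were called higher and 829 lower in resolving lung than in spleen. The array of resolving lung replicate 1 differed most within its group, correlating over genes at 0.98 with both others, which correlated at 0.99 with each other. Its mean of the macrophage list was 6.89, against 4.66 and 4.67, and that of the fibroblast and smooth muscle list was 4.87, against 2.48 and 2.54. Control lung replicate 1 had a fibroblast list mean of 3.84, against 2.42 and 2.32 in replicates 2 and 3. Xist was low on resolving lung replicate 1 (2.44) and resolving spleen replicate 1 (2.33) and between 8.23 and 9.13 on the other 7 arrays, while Ddx3y, on the Y chromosome, ranged from 6.89 to 8.21 over all 9, so the mix of sexes was not the same on each array.

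Of the 3 annexins among the 9 genes, Anxa1 and Anxa2 differed most between resolving lung and spleen. Annexin A1 is induced by glucocorticoids and acts through formyl peptide receptors to limit the entry of neutrophils and favour resolution. Anxa1 was at 6.67, 6.57 and 6.58 in control lung replicates 1, 2 and 3, at 7.03, 6.88 and 6.58 in resolving lung, and at 5.32, 5.44 and 4.51 in resolving spleen (all log2 levels). Every lung array was above every spleen array, the lung groups overlapped, and spleen replicate 3 was the lowest of all. Group means were 6.61 ± 0.06, 6.83 ± 0.23 and 5.09 ± 0.51 (SD, n = 3 each). Anxa1 was 3.33-fold higher in resolving lung than in resolving spleen (log2 difference 1.74, SE 0.23, 95% interval 1.21 to 2.26, limma adjusted p = 0.00564). It was 2.86-fold higher in control lung than in resolving spleen (log2 difference 1.52, SE 0.23, limma adjusted p = 0.00810). The difference between resolving and control lung was 0.22 on the log2 scale (95% interval -0.30 to 0.74, limma adjusted p = 0.723), so a rise of up to 1.67-fold or a fall to 0.81 of the control level lay within the interval.

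Annexin A2 joins membranes to actin and forms a tetramer with S100a10 at the cell surface that binds plasminogen and its activator. Anxa2 was at 7.74, 7.69 and 8.12 in control lung, at 7.86, 8.01 and 7.97 in resolving lung, and at 6.48, 6.91 and 6.67 in resolving spleen. The 6 lung arrays were all above the 3 spleen arrays, and control lung replicate 3 was above all resolving lung arrays. Anxa2 was 2.40-fold higher in resolving lung than in resolving spleen (log2 difference 1.26, SE 0.14, 95% interval 0.94 to 1.58, limma adjusted p = 0.00327) and 2.24-fold higher in control lung than in resolving spleen (log2 difference 1.16, SE 0.14, limma adjusted p = 0.00300). Between the lung groups the difference was 0.10 (95% interval -0.22 to 0.42, limma adjusted p = 0.803), which bounds a rise at 1.34-fold. The calls of Anxa1 and Anxa2 against spleen held under all 24 alternative settings tried, in both comparisons with spleen, with adjusted p-values up to 0.0496.

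Anxa5 departed from that order. Annexin A5 binds phosphatidylserine, the lipid that dying and activated cells expose. It was at 8.87, 8.56 and 8.45 in control lung, at 9.43, 9.15 and 9.05 in resolving lung, and at 8.77, 8.77 and 8.61 in resolving spleen. All resolving lung arrays were above all others, and control lung and spleen overlapped. The difference from control lung was 0.58 (SE 0.13, 95% interval 0.28 to 0.89, limma adjusted p = 0.109), the smallest adjusted p of the 9 genes in that comparison, and that from spleen was 0.49 (SE 0.13, limma adjusted p = 0.0742). Neither passed the threshold. Control lung and spleen differed by -0.09 (95% interval -0.39 to 0.21, limma adjusted p = 0.803).

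The S100 genes did not share one pattern. S100a4 binds the heavy chain of non-muscle myosin and is linked to cell motility, and S100a6, or calcyclin, binds the ubiquitin ligase adaptor Cacybp. S100a4 was at 8.62, 8.65 and 9.02 in control lung, at 10.07, 9.65 and 9.19 in resolving lung, and at 8.32, 8.38 and 8.30 in resolving spleen. The 3 groups did not overlap, and the spread was widest in resolving lung (SD 0.44, against 0.23 in control lung and 0.04 in spleen). S100a4 was 2.46-fold higher in resolving lung than in spleen (log2 difference 1.30, SE 0.21, 95% interval 0.83 to 1.77, limma adjusted p = 0.0109). That call was lost with the replicate number as a block on the 6 arrays compared (limma adjusted p = 0.0796). The difference from control lung was the largest of the 9 genes, at 0.87 (SE 0.21, 95% interval 0.40 to 1.34), and did not pass over all genes (limma adjusted p = 0.118). It was 0.66 without resolving lung replicate 1, the array with the highest macrophage and fibroblast list means, and 0.58 when control lung replicate 1 was left out too. Without resolving lung replicate 3 it was 1.10 and passed (limma adjusted p = 0.0440, in a range of 0.0440 to 0.416 over the 24 alternatives). Control lung and spleen differed by 0.43 (95% interval -0.04 to 0.90, limma adjusted p = 0.315).

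S100a6 was at 8.96, 9.03 and 9.40 in control lung, at 9.94, 9.56 and 9.35 in resolving lung, and at 8.63, 8.58 and 8.36 in resolving spleen. The spleen arrays were the lowest 3, and control lung replicate 3 was above resolving lung replicate 3. S100a6 was 2.14-fold higher in resolving lung than in spleen (log2 difference 1.10, SE 0.17, 95% interval 0.71 to 1.49, limma adjusted p = 0.0103). The differences of resolving lung from control lung (0.49, SE 0.17, limma adjusted p = 0.247) and of control lung from spleen (0.61, SE 0.17, limma adjusted p = 0.0810) did not pass.

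S100a10, the annexin A2 partner that has lost calcium binding, and S100a11, which binds annexin A1, varied less. S100a10 was at 10.82, 11.004 and 11.31 in control lung, at 11.10, 11.26 and 11.06 in resolving lung, and at 10.46, 10.85 and 10.74 in resolving spleen. Its resolving lung arrays were above those of spleen, and control lung overlapped both. No difference passed, with 0.45 (95% interval 0.13 to 0.78, limma adjusted p = 0.119) between resolving lung and spleen, 0.36 (limma adjusted p = 0.209) between control lung and spleen and 0.09 (95% interval -0.23 to 0.42, limma adjusted p = 0.824) between the lung groups. S100a11 was at 10.03, 10.13 and 10.30 in control lung, at 9.98, 9.98 and 10.01 in resolving lung, and at 9.50, 9.77 and 9.73 in resolving spleen. Its control lung arrays were the highest 3, and the 3 groups did not overlap. S100a11 was 1.40-fold higher in control lung than in spleen (log2 difference 0.49, SE 0.10, limma adjusted p = 0.0222). That call was lost without control lung replicate 2 or 3 or spleen replicate 1 or 3 (limma adjusted p = 0.0599, 0.0670, 0.0637 and 0.0577). The differences of resolving lung from spleen (0.32, SE 0.10, limma adjusted p = 0.104) and from control lung (-0.17, SE 0.10, 95% interval -0.38 to 0.05, limma adjusted p = 0.489) did not pass.

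Lgals1 encodes galectin-1, a secreted lectin that crosslinks T cell surface glycoproteins. It was at 10.80, 10.75 and 10.996 in control lung, at 11.36, 10.92 and 11.04 in resolving lung, and at 10.30, 10.36 and 10.16 in resolving spleen. Spleen was below both lung groups on every array, and the lung groups overlapped. Lgals1 was 1.78-fold higher in resolving lung than in spleen (log2 difference 0.83, SE 0.12, 95% interval 0.55 to 1.12, limma adjusted p = 0.00841) and 1.49-fold higher in control lung than in spleen (log2 difference 0.57, SE 0.12, limma adjusted p = 0.0313). The latter call was lost when any 1 of the 6 arrays compared was left out (limma adjusted p between 0.0595 and 0.110). With the replicate number as a block on the 6 arrays compared, both calls were lost (limma adjusted p = 0.0792 and 0.0696). The lung groups differed by 0.26 (SE 0.12, 95% interval -0.02 to 0.54, limma adjusted p = 0.392).

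Vimentin is the intermediate filament protein of lymphocytes and mesenchymal cells. Vim was at 11.16, 11.19 and 11.49 in control lung, at 11.60, 11.54 and 11.32 in resolving lung, and at 10.78, 10.86 and 10.93 in resolving spleen. Again spleen held the lowest 3 arrays and the lung groups overlapped. Vim was 1.54-fold higher in resolving lung than in spleen (log2 difference 0.63, SE 0.11, 95% interval 0.37 to 0.88, limma adjusted p = 0.0171). That call was lost without resolving lung replicate 2, spleen replicate 1 or spleen replicate 2 (limma adjusted p = 0.0568, 0.0695 and 0.0554). Control lung against spleen was 0.42 (SE 0.11, limma adjusted p = 0.0654) and resolving against control lung 0.21 (SE 0.11, 95% interval -0.05 to 0.46, limma adjusted p = 0.458), neither past the threshold.

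In the check of pairing, same-numbered arrays of resolving lung and resolving spleen correlated at 0.17, 0.13 and 0.16 in their deviations from the group means. Different-numbered arrays of the lung groups reached 0.20, so the check does not settle the pairing. The fit with the replicate number as a block is given beside this comparison. With the block and all 9 arrays 7 of the 9 genes were higher in resolving lung, Anxa5 being the added one (limma adjusted p = 0.0285). That block also tied the control lung arrays by number, which were not taken as paired. With the block and the 6 arrays of resolving lung and spleen alone 3 were higher (S100a6, Anxa1 and Anxa2, limma adjusted p = 0.0496 each), and Anxa5 was not. S100a4, Lgals1 and Vim were then at limma adjusted p-values of 0.0796, 0.0792 and 0.0974, with the same differences. Without resolving lung replicate 1 and resolving spleen replicate 1, the arrays low in Xist, 5 of the 9 genes passed, and Vim did not (limma adjusted p = 0.123).

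Set side by side, the groups gave a partial order. Resolving lung was the highest group mean for 8 of the 9 genes, and spleen was the lowest for 8. The exceptions were S100a11, highest in control lung, and Anxa5, lowest in control lung. The resolving lung and spleen arrays did not overlap for 9 of the 9 genes, all higher in lung, which held for 11.3% of all genes in that direction. Control lung and spleen did not overlap for 7 of the 9, all higher in lung, against 11.6% of all genes. Resolving and control lung did not overlap for S100a4 and Anxa5 (higher) and S100a11 (lower), 3 of the 9, against 16.3% of all genes in either direction. These shares include genes below the dim level, while the 9 genes lay above it on every array. Shares without overlap were not counted for genes above it alone. The median log2 difference of the 9 genes was 0.83 for resolving lung against spleen, 0.49 for control lung against spleen and 0.22 for resolving against control lung, where the median of all genes lay between 0.0027 and 0.0091. The comparisons share arrays, so their values are not independent.

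Within the resolving lung group, replicate 1 was the highest array for 6 of the 9 genes and replicate 3 the lowest for 6. Within control lung, replicate 3 was the highest for 7. The mean of the 9 genes was 9.30, 9.29 and 9.52 in control lung, 9.82, 9.66 and 9.51 in resolving lung and 8.73, 8.88 and 8.67 in resolving spleen. Resolving lung replicate 3 was thus within the control lung range, and no lung array reached the spleen range.

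Most of these genes are also expressed by macrophages and mesenchymal cells, so the levels of other cells' markers are given beside them. The macrophage list had 13 of 15 markers measured, of which Chil3, Cd68, Mrc1, Csf1r, C1qa and C1qb lay above the dim level on all 9 arrays and Siglecf on 0. Its mean was between 3.98 and 5.06 in control lung, 4.66 and 6.89 in resolving lung and 4.61 and 5.52 in spleen, so the groups overlapped. The fibroblast and smooth muscle list (10 of 10 measured, 0 above the dim level on all arrays, Lum on 0) lay between 2.32 and 3.84, 2.48 and 4.87, and 2.23 and 2.32. The endothelium list (10 of 10 measured) lay between 2.95 and 4.59, 3.21 and 4.32, and 2.91 and 2.97, with Cldn5, Ramp2 and Emcn above the dim level on 0 arrays. The epithelium list (13 of 14 measured) was between 5.99 and 7.06 in control lung. It was between 4.68 and 5.38 in resolving lung and between 3.23 and 3.87 in spleen, so no 2 groups overlapped and spleen was lowest. The B cell list (10 of 10 measured) lay between 5.08 and 5.23, 4.42 and 4.62, and 5.60 and 6.88. It was highest in spleen and, like the epithelium list, lower in resolving than in control lung without overlap. The neutrophil list (9 of 10 measured, Camp above the dim level on 0) lay between 3.08 and 3.70, 3.38 and 4.51, and 3.44 and 3.75. The part of these cells in the differences of the 9 genes was not tested. With replicate 1 of both lung groups left out, the counts of the 9 genes called higher were 6 for resolving lung against spleen, 5 for control lung against spleen and 0 between the lung groups. In sorted bulk RNA, fewer cells with a transcript and less transcript per cell cannot be told apart.

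**Figure D3:**
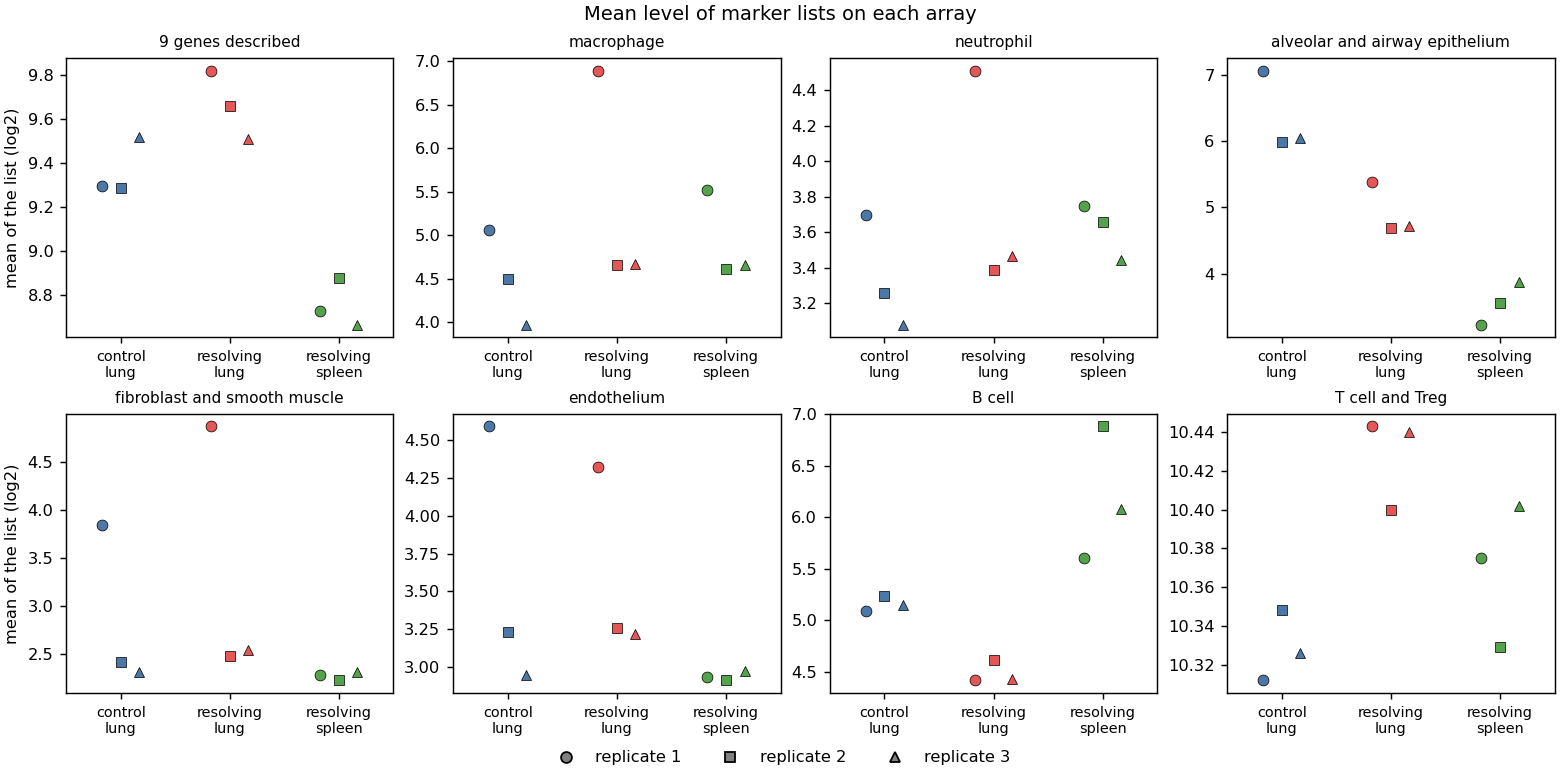
Mean log2 level (vertical axis of each panel) of the 9 genes and of 7 marker lists on each array, by group; points are arrays and marker shapes are replicate numbers. Resolving lung replicate 1 is the highest array in the macrophage (6.89), neutrophil (4.51) and fibroblast (4.87) panels. It is also the highest in the panel of the 9 genes (9.82), followed by resolving lung replicate 2 (9.66).

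The genome places S100a4 and S100a6 in 1 run of S100 genes on mouse chromosome 3. By order in the RefSeq gene list, S100a5 lies between them, S100a2 and S100a3 lie before S100a4, and S100a7a, S100a8 and S100a9 follow S100a6. S100a2, S100a3, S100a5 and S100a7a lay above the dim level on 0 of 9 arrays, with highest values of 2.73, 3.05, 2.74 and 2.45. S100a8 and S100a9, the calprotectin genes of neutrophils and monocytes, lay above it on 8 of 9. S100a8 was at 4.67, 3.94 and 3.35 in control lung, 5.69, 4.15 and 3.93 in resolving lung and 4.60, 4.81 and 4.59 in spleen, and S100a9 at 4.32, 3.38 and 3.14, 5.08, 3.79 and 3.46, and 4.18, 4.40 and 4.30. Both were highest on resolving lung replicate 1, and neither passed in any comparison. S100a10 and S100a11 are neighbours of each other elsewhere on chromosome 3, and the nearest measured genes on either side, Tchhl1 and Tdpoz2, lay above the dim level on 0 of 9 arrays.

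Promoter sequences are shown for 4 genes. S100a4 and S100a6, of the same run of S100 genes on chromosome 3, were higher in resolving lung than in spleen. Anxa1 and Anxa2 were the 2 with calls against spleen in both lung groups under all 24 alternative settings. The promoters are RefSeq sequences of build GRCm38.p6, from 250 bases before the transcript start to 50 from it, read 5′ to 3′ on the gene's strand. They span chr3:90603520-90603819 (plus strand) for S100a4, chr3:90612644-90612943 (plus) for S100a6, chr19:20390622-20390921 (minus) for Anxa1 and chr9:69453433-69453732 (plus) for Anxa2. Capitals mark matches, on either strand, to 5 motifs, the AP-1 site TGANTCA, the GC box GGGCGG, the TATA box TATAAA, the Runx site TGTGGT and the NF-kB site.
S100a4: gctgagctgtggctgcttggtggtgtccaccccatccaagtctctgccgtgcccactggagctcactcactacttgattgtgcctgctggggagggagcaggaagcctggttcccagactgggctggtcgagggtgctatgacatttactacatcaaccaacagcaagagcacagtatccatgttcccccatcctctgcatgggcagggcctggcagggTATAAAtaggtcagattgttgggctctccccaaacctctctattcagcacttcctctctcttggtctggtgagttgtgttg
S100a6: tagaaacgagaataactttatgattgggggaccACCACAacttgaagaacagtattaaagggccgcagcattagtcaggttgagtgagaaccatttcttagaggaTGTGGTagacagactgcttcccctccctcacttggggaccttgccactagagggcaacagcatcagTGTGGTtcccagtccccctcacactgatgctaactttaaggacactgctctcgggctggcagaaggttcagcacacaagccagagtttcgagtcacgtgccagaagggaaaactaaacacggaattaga
Anxa1: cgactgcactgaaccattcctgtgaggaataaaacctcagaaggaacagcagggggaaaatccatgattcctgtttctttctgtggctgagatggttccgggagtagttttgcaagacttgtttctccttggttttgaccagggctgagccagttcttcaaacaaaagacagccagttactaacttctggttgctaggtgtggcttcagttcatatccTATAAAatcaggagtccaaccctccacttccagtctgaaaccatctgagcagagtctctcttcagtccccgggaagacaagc
Anxa2: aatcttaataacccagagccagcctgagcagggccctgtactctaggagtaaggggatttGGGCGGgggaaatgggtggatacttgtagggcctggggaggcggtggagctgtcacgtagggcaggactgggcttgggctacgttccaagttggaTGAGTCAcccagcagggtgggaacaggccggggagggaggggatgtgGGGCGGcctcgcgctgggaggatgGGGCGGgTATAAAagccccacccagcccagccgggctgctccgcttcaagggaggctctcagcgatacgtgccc

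In these windows a TATA box began 31 bases before the start of S100a4, 32 before that of Anxa1 and 17 before that of Anxa2. Anxa2 also held an AP-1 match beginning 95 bases before the start and 3 GC boxes, and S100a6 held 3 Runx matches and none of the other motifs. No matches overlapped in the 4 sequences. Promoters were found for 7 of the 9 genes, not for S100a10 and Lgals1. Of the 7, 4 held the TATA box (Vim besides the 3 above), against 14.2% of 27025 promoters. The AP-1 site was in 2 (S100a11 and Anxa2), against 7.93%, the GC box in the same 2, against 35.9%, the Runx site in 1, against 16.9%, and the NF-kB site in 0, against 1.43%. A match is a description of letters in the window.

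Other members of the 3 families were counted in the same fit. Of 29 further S100, galectin and annexin genes 24 were measured, and 12 of them lay above the dim level on 0 of 9 arrays. The 7 above it on all arrays were S100a1, S100a13, Lgals8, Lgals9, Anxa4, Anxa7 and Anxa11. Anxa4, which binds membranes of secretory epithelia among others, was the 1 gene of 24 that passed, against spleen in resolving lung, where 2.64% of all genes were called higher. It was 2.40-fold higher in resolving lung than in spleen (log2 difference 1.26, SE 0.25, limma adjusted p = 0.0275). It was at 7.65, 6.63 and 6.66 in resolving lung, 5.86, 5.77 and 5.52 in spleen and 6.32, 6.03 and 6.22 in control lung, with resolving lung replicate 1 the highest. Its call was lost without control lung replicate 3 or any 1 spleen array (limma adjusted p = 0.0505, 0.0741, 0.0757 and 0.10), and with the block on 6 arrays (limma adjusted p = 0.0891). Anxa3, singled out after its values were seen for its size, was at 6.04, 3.73 and 4.29 in resolving lung, 5.15, 3.64 and 3.53 in control lung and 2.51, 2.56 and 2.82 in spleen. Its spleen arrays were all below the dim level, so its size against spleen rests on values at the floor. Anxa3 did not pass against spleen in resolving or control lung (limma adjusted p = 0.103 and 0.240). None passed in the other comparisons by limma, with 7 of 24 at an unadjusted p under 0.05 between the lung groups, where 14% of all genes were, and 2 between control lung and spleen, where 18.8% of all genes were. The median difference of the 24 was 0.07 between the lung groups, 0.04 for resolving lung against spleen and -0.01 for control lung against spleen.

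The 5 relatives with the highest signal did not pass in any comparison. Galectin-9, known as a ligand of the receptor Havcr2, had Lgals9 means of 10.34 in control lung, 10.20 in resolving lung and 10.44 in spleen. The resolving lung arrays of Lgals9 were all below those of spleen (log2 difference -0.23, limma adjusted p = 0.186). Lgals8 lay between 7.50 and 7.79 and Anxa11 between 10.02 and 10.39 on the 9 arrays. Anxa7 lay between 6.77 and 7.26, and S100a13 between 7.01 and 8.14 with its highest value on resolving lung replicate 1. S100a13 was 0.57 above spleen in resolving lung without overlap (limma adjusted p = 0.140), and Anxa7 was 0.31 above control lung without overlap (limma adjusted p = 0.168).

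**Figure D4:**
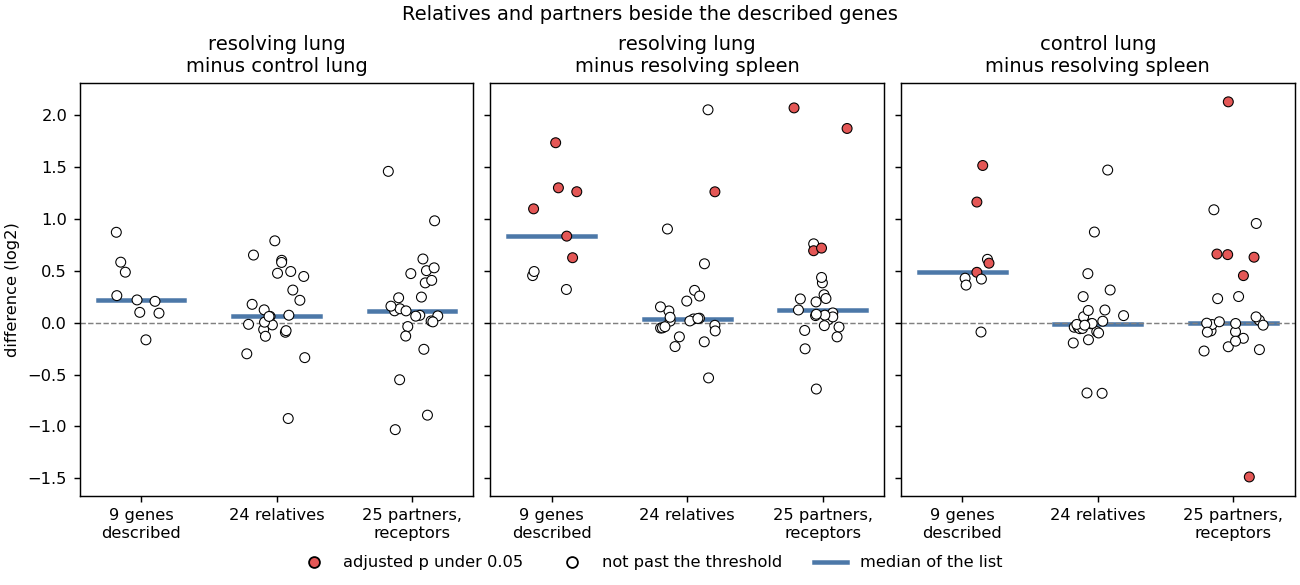
Differences between group means (log2, vertical axis) in the 3 comparisons for the 9 genes, 24 relatives and 25 partners and receptors; each point is 1 gene, filled where its adjusted p is under 0.05, and blue lines are list medians. In resolving lung against spleen the median is 0.83 for the 9 genes, 0.04 for the relatives and 0.12 for the partners.

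Binding partners, receptors and related cytoskeletal genes were counted as a further list, with 25 of 28 measured. Between the lung groups 0 of 25 passed by limma, and 8 were at an unadjusted p under 0.05, where 14% of all genes were. Against spleen 5 were higher in resolving lung (Ahnak, Crip1, Havcr2, Lmna and Tagln2) and 0 lower, and in control lung 5 were higher (Ahnak, Crip1, Des, Lmna and Tagln2) and 1 lower (Lag3). Of all genes 2.64% were called higher and 2.82% lower in the first comparison, and 2.67% higher and 3.49% lower in the second. Ahnak, a giant scaffold protein that binds the complex of S100a10 and annexin A2, followed Anxa2 in the order of the groups. It was at 8.13, 8.19 and 8.42 in control lung, 8.35, 8.20 and 8.39 in resolving lung and 7.48, 7.60 and 7.67 in spleen, 1.66-fold higher in resolving lung and 1.58-fold higher in control lung than in spleen (limma adjusted p = 0.00567 and 0.00701). Without resolving lung replicate 1 and spleen replicate 1 the former call was lost, as it was with the block on 6 arrays (limma adjusted p = 0.0509 and 0.0639).

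Lmna, the nuclear lamina gene, was 3.66-fold higher in resolving lung and 4.38-fold higher in control lung than in spleen (limma adjusted p = 0.0100 and 0.00510), with spleen values of 3.41, 2.73 and 3.39. Spleen replicate 2 was below the dim level, so the folds rest on values near it. Havcr2, or Tim-3, an inhibitory receptor, was 4.20-fold higher in resolving lung than in spleen (limma adjusted p = 0.00777), a call lost with the block on 6 arrays (limma adjusted p = 0.0830). Its levels were 8.40, 7.95 and 7.31 in resolving lung, 6.93, 6.58 and 7.21 in control lung and 5.49, 6.20 and 5.76 in spleen, with no overlap between groups. The LIM protein gene Crip1 and the actin-binding Tagln2 were 1.65-fold and 1.62-fold higher in resolving lung than in spleen (limma adjusted p = 0.0312 and 0.00970), and 1.58-fold and 1.37-fold higher in control lung (limma adjusted p = 0.0401 and 0.0443). The calls of these last 2 in control lung were lost in 11 and 13 of the 24 alternatives, and that of Crip1 in resolving lung in 9, one of them the fit without resolving lung replicate 1 (limma adjusted p = 0.0626). With the block on 6 arrays both calls in resolving lung were lost (limma adjusted p = 0.0768 for Crip1 and 0.0642 for Tagln2). Lag3 was at 4.56, 4.11 and 4.84 in control lung, 6.57, 5.80 and 5.52 in resolving lung and 5.73, 6.25 and 5.997 in spleen. Resolving lung and spleen overlapped (log2 difference -0.03, 95% interval -0.68 to 0.63, limma adjusted p = 0.976). Resolving lung was above control lung without overlap but did not pass (log2 difference 1.46, limma adjusted p = 0.0739). Lag3 was lower in control lung than in spleen (log2 difference -1.49, limma adjusted p = 0.0204). That call was lost without control lung replicate 1 or 2 or spleen replicate 2 or 3 (limma adjusted p between 0.0629 and 0.0744). Des, which also passed, lay below the dim level on all 9 arrays, so no fold is given.

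Partners at high signal that did not pass were Ptprc, between 11.33 and 11.50, Emp3, between 11.03 and 11.28, and Myh9, the S100a4 target, between 10.42 and 10.65 on the 9 arrays. The annexin A1 receptor genes Fpr1 and Fpr2 were highest on resolving lung replicate 1, at 5.08 and 4.16, and Fpr2 was between 2.28 and 2.78 on the other 8 arrays. Neither passed in a comparison.

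Among themselves the 9 genes fell into closer and looser pairs. Likeness was the root mean square difference of log2 profiles, each centred on its own mean over the 9 arrays, so a smaller value means a closer pattern. The closest pairs were S100a10 with Vim (0.13), S100a10 with S100a11 (0.13), Lgals1 with Vim (0.16), S100a6 with Lgals1 (0.16) and S100a4 with S100a6 (0.18), and the least alike were Anxa1 and Anxa5 (0.72). The search for each profile took genes outside the list whose SD over the 9 arrays was at least 0.5 of the profile's SD, so its size differed between profiles. The nearest to the mean profile of the 9 were Cdca2 (0.090), Apaf1 (0.097), Pole2 (0.10), Tagln2 (0.10) and Aebp2 (0.11), from 6967 genes searched. For single genes between 1718 (Anxa1) and 13608 (S100a11) were searched, and the measure grows with the spread of the profile, so it is not compared between profiles. Among the genes nearest to S100a4 were Mcm5, Lrrc49, Klrg1 and Spdl1 (0.16 to 0.18), and among those nearest to S100a6 were Lgmn, Rgs1, Brca1 and Cdca5 (0.11 to 0.13). The nearest to Anxa1 were 1500009L16Rik (0.21), Ccr2 (0.25), Gem (0.27), Itgam (0.29) and Nr4a1 (0.30). For Anxa2 they were Racgap1, Rapgef5, Stil, Icos and Hmgb2 (0.090 to 0.16), and for Vim they were Tagln2, Fbxo5, Nucks1, Apaf1 and Slc25a24 (0.065 to 0.092). Aebp2, Pole2, Rgs1, Apaf1 and H2bc13 (0.083 to 0.11) were nearest to Lgals1, and Atp6ap2, Gsr, Etv1, Psma1 and Cox5a (0.10 to 0.13) to Anxa5. The nearest to S100a10 were Mdm1, Fam71f2, Smim24, Arsb and Zfp622 (0.093 to 0.11), and to S100a11 Zfp839, Uhrf1bp1l, Sgo2a, Arf4 and Vgll4 (0.077 to 0.090). All profiles share the same 9 arrays, so these values describe the arrays and carry no test.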

How the data were processed

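The deposited table held log2 expression values in 31351 rows, with a column for each array. The authors used Affymetrix Expression Console, RMA and Partek, per the submitters' processing notes; versions are not given in the sources used here. Total RNA input was 225 ng per the labels' protocols. RMA makes the arrays' distributions alike and compresses changes of dim genes. The labels do not tie replicates to separate animals, and p-values then cover only the spread of these samples, which may be technical. Accessions were named through the NCBI RefSeq gene list (GRCm38.p6, names and gene order alone): 21057 rows had 1 symbol and 10294 had none and were not used. Of the rows of 34 genes that had more than 1, the one of highest mean was kept. No gene was filtered.

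A single linear model of the 9 arrays was fitted with limma 3.58.1 (R 4.3.3; lmFit and eBayes, 6 residual and 2.29 prior degrees of freedom), tested on simulated data first. The threshold was a two-sided Benjamini-Hochberg adjusted p under 0.05 over 21023 genes in each of 3 comparisons. Where a difference is named without a call it did not pass. The number of arrays limits the precision. Members, lists and tests were chosen with earlier results of these data known. Genes outside the 10 were named if past the threshold, among the 5 highest on each list, or S100a8 and S100a9, with a few more chosen after their values were seen (Anxa3, Fpr1, Fpr2 and genomic neighbours). The promoter motifs were chosen after the data were seen. A few of the genes nearest in profile are not reported here. Correlations of deviations from the group means between same-numbered arrays were 0.17, 0.13 and 0.16 for resolving lung and spleen, all over 0.1, and so these were taken as paired, from the values alone. Different-numbered arrays of these groups lay between -0.14 and 0.017. Different-numbered arrays of the lung groups reached 0.20 and 0.18, so values over 0.1 do not by themselves show pairing. Numbers came from the titles, and the description of spleen replicates 2 and 3 gives both the same number, so the pairing of these is uncertain. Same-numbered correlations were 0.29, 0.068 and 0.10 for the lung groups and 0.077, -0.064 and 0.049 for control lung and spleen. Those groups were not taken as paired. Alternatives varied the scaling, filter, variance model, arrays, rows, block and threshold.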

Additional observations from a re-analysis of the deposited data

How the results depend on the processing

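Over 24 alternatives per comparison, 1 of them (the replicate block on only the 6 arrays compared) chosen after the data were seen, the direction of each of the 9 genes held in all 3 comparisons, except S100a10 in resolving against control lung, at -0.019 without control lung replicate 1, in a range of -0.019 to 0.22 with 1 array left out. Group levels of the 9 genes moved by less than 1 SD in 54 of 54 cases under both other scalings. With 1 array left out the 9 genes called higher numbered 0 to 1 between the lung groups, 5 to 7 for resolving lung against spleen and 2 to 5 for control lung against spleen, and 0 were called lower. The replicate block on 6 arrays called 3 of the 9 in resolving lung against spleen.

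Counts over all genes moved more. Between the lung groups, 28 genes were higher and 68 lower. These became 87 and 148 with genes above the dim level in at least 3 arrays, 92 and 146 with genes of a mean above it, 138 and 193 at an adjusted p under 0.1, and 7 and 8 with the replicate block. They were 0 and 0 with only the 6 arrays compared, with or without the block, by limma, where 2344 genes had an unadjusted p under 0.05 without it. Array weights gave 44 lower. Leaving out 1 array gave 1 to 90 higher and 3 to 122 lower. With replicate 1 of both lung groups left out the counts were 7 and 8, and without resolving lung replicate 1 and spleen replicate 1 they were 7 and 2. For resolving lung against spleen, 556 were higher and 592 lower, against 350 and 354 with only the 6 arrays, 93 and 82 with the replicate block on them, 843 and 1033 at an adjusted p under 0.1, and 302 and 225 without resolving lung replicate 1 and spleen replicate 1. Leaving out 1 array gave 266 to 596 higher and 242 to 535 lower. For control lung against spleen, 561 were higher and 734 lower, with 1161 lower at an adjusted p under 0.1, and 306 to 788 higher and 368 to 1005 lower with 1 array left out. The fits on fewer arrays have fewer degrees of freedom, and the filters test fewer genes; other causes were not tested.

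The replicate numbers of the lung groups, and of control lung and spleen, were not taken as paired. The block called 0 of the 9 genes between the lung groups and 3 of the 9 higher in control lung than in spleen. Arrays of this kind report relative signal, and genes near the dim level have compressed differences.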
